A study of Homo sapiens with 6 samples.

Results

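The genes described here are 9 effectors that act below the small GTPase RhoA: the kinases ROCK1 and ROCK2, the LIM kinases LIMK1 and LIMK2, the cofilin phosphatase SSH1, cofilin itself (CFL1), the diaphanous formins DIAPH1 and DIAPH3, and the protein kinase PKN2. They were taken by gene symbol from a table of 60664 genes, and all 9 were found once and had enough reads to be tested, among 15900 tested genes. RNA was sequenced from PC9OR, labelled as a lung cancer cell line, in 3 si-GLMP libraries (labelled GLMP knockdown) and 3 NC libraries (labelled Control). PC9, the line named in PC9OR, is a human lung adenocarcinoma line that carries an activating EGFR deletion. The title of the series names autophagy, the RhoA pathway and resistance to tyrosine kinase inhibitors of EGFR. No drug, dose or time is given in the labels, a single cell line was used, and the labels do not say whether the libraries of a group came from separate cultures, so p-values reflect only how these libraries vary, and that variation may be technical.

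RhoA bound to GTP binds and activates several kinds of effector protein. ROCK kinases phosphorylate the myosin light chain and the myosin phosphatase, which raises contractility, and they phosphorylate LIM kinases. LIM kinases in turn phosphorylate cofilin, an actin-severing protein, and so switch it off, and slingshot phosphatases such as SSH1 remove that phosphate. Diaphanous formins are held in a self-inhibited state until they are activated, and then build unbranched actin filaments, and PKN kinases bind GTP-bound RhoA directly. Much of this control works on proteins already made, and the counts analysed here measure only the RNA of each gene.

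GLMP, a membrane protein of the lysosome, was reduced in each si-GLMP library. It had 82, 61 and 65 counts in si-GLMP replicates 1 to 3, against 309, 344 and 347 counts in NC replicates 1 to 3. Library totals ran from 19896875 to 22372878 counts. Mitochondrially encoded genes took 5.19% to 5.51% of the counts in si-GLMP libraries and 6.51% to 8.76% in NC libraries, with NC replicate 2 the highest. Of 9 epithelial markers, all were detected, and their summed level was 8847 to 9895 CPM (counts scaled to a common library total with TMM factors) in si-GLMP libraries and 9474 to 9770 CPM in NC libraries. Of these markers, 5 were called higher and 1 lower, with a median log2 fold change of 0.30. CLDN4, ELF3 and MUC1 had 0.59, 0.79 and 0.59, EPCAM and CDH1 0.30 each, and KRT7 -0.27, so the sum, carried by keratins, hides this shift. The other cell type markers were low. The 8 fibroblast markers summed to 10.8 to 12.9 CPM in si-GLMP libraries and 6.52 to 8.23 CPM in NC libraries, with COL3A1 at 0 throughout, and COL1A1 made up most of the sum (10.1 ± 0.672 CPM in si-GLMP and 5.38 ± 0.933 CPM in NC, SD, n = 3 each). The 8 leukocyte markers summed to 30.4 to 35 CPM in si-GLMP libraries and 17.7 to 22.6 CPM in NC libraries, with LYZ and TYROBP at 0. CSF1R made up most of that sum, at 30.4 ± 1.94 CPM in si-GLMP and 17.7 ± 2.74 CPM in NC (SD, n = 3 each). The 6 endothelial markers summed to 6.88 to 7.69 CPM in si-GLMP libraries and 5.12 to 7.73 CPM in NC libraries. The part of these marker shifts in the results was not tested. In bulk RNA, fewer cells of a kind and less RNA per cell cannot be told apart.

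LIMK1 and DIAPH3 were clearly lower in si-GLMP, ROCK2 and DIAPH1 slightly lower, and the other 5 genes did not pass the test. LIMK1, which switches cofilin off, had a log2 fold change of -1.12, and DIAPH3, a builder of actin filaments, -0.69. The kinase ROCK2 had -0.21 and the formin DIAPH1 -0.20. LIMK2, the paralog of LIMK1, was the only member with a positive value, 0.17, and it was not past the threshold. Thus 4 of 9 members were lower and 0 higher at an edgeR adjusted p under 0.05 (quasi-likelihood test, Benjamini-Hochberg adjustment over all tested genes). Of all tested genes, 11.3% were lower, 12% higher and 23.3% either. Among the 4169 genes at least as abundant as the least abundant member, 34.3% were called and 16.5% were lower. The median log2 fold change was -0.11 over the members and 0.00 over all tested genes, and the median absolute value was 0.17 over the members and 0.18 over all tested genes. For 5 of 9 members no si-GLMP library reached the CPM of any NC library and 0 were separated the other way, whereas 36.5% of all tested genes had groups apart, 17.9% with si-GLMP lower and 18.5% with si-GLMP higher. The count of 4 lower members became 2 if NC replicate 1, NC replicate 3 or si-GLMP replicate 3 was left out. It became 3 without si-GLMP replicate 1 and with no filter on low counts. A positive call of LIMK2 appeared without si-GLMP replicate 2. An absolute log2 fold change over 0.5 with the same adjusted p was met by 2 members, LIMK1 and DIAPH3, and by 7.88% of tested genes. One over 1 was met by LIMK1 among the members and by 1.91% of tested genes.

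**Figure D1:**
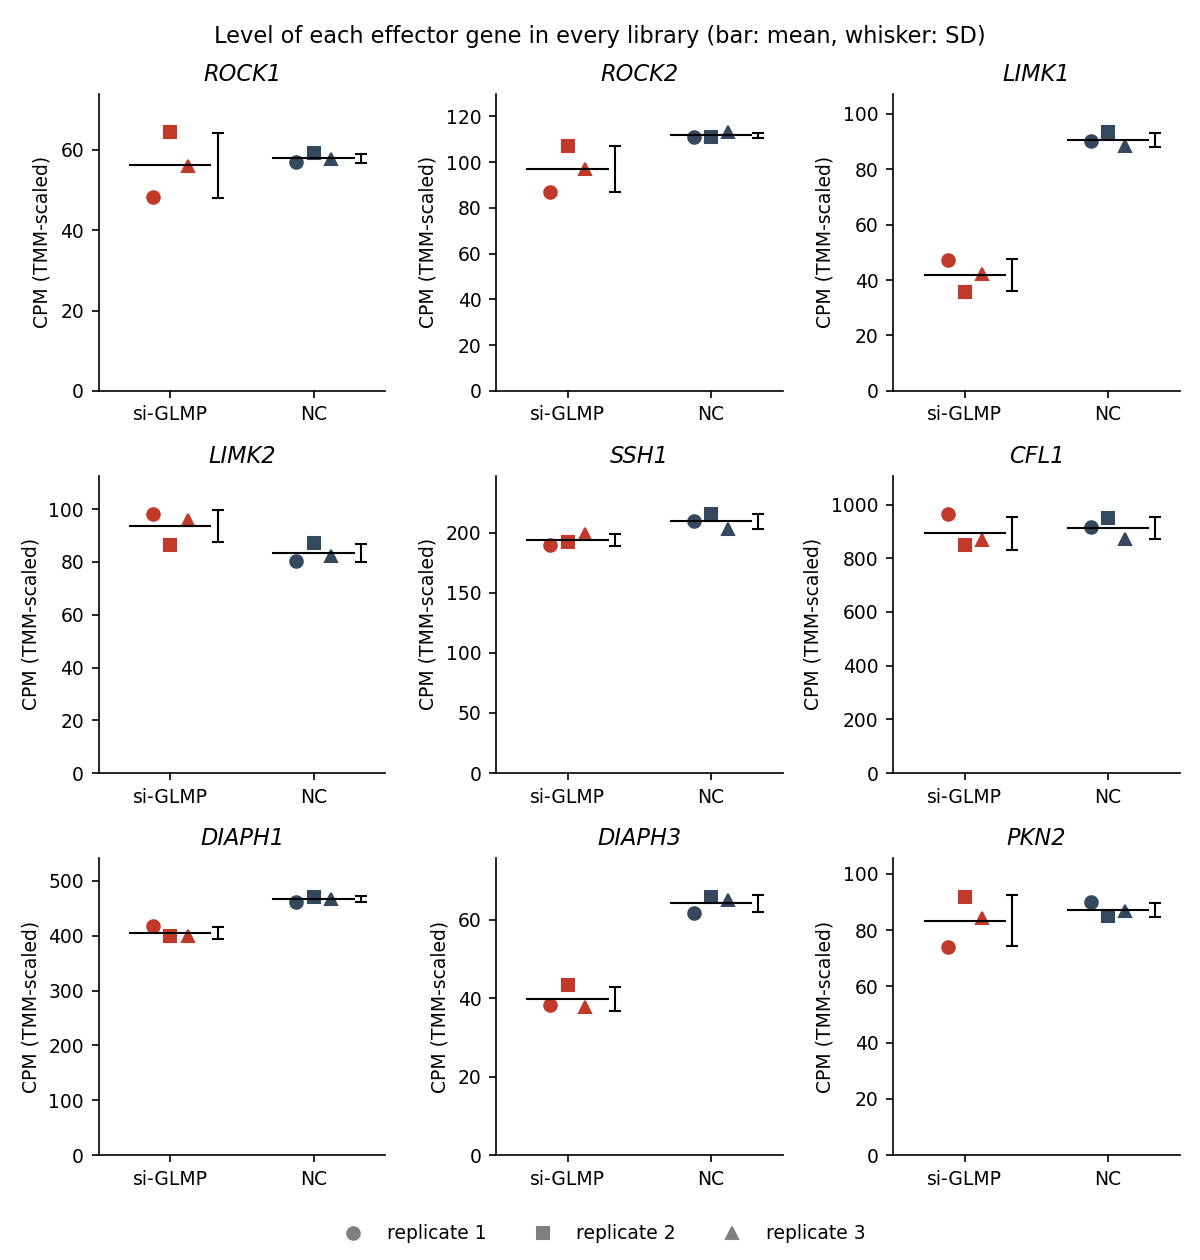
Level of each of the 9 effector genes in CPM scaled by TMM (vertical axes, from 0) in the 3 si-GLMP libraries (left, red) and the 3 NC libraries (right, dark), with the mean as a bar and the SD as a whisker. LIMK1 lies between 35.7 and 47.3 CPM in si-GLMP and between 88.4 and 93.3 CPM in NC, while the points of ROCK1, LIMK2, CFL1 and PKN2 overlap between the groups.

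The LIM kinases phosphorylate cofilin, and LIMK1 was lower in si-GLMP while LIMK2 did not pass the test. LIMK1 (ENSG00000106683; GRCh38 chromosome 7, 74082933 to 74122525, plus strand) had 968, 757 and 870 counts in si-GLMP replicates 1 to 3 and 1792, 1906 and 1993 counts in NC replicates 1 to 3. Every si-GLMP library was far below every NC library. The level averaged 41.7 ± 5.82 CPM in si-GLMP and 90.6 ± 2.46 CPM in NC (SD, n = 3 each). The log2 fold change was -1.12 ± 0.08 (SE; edgeR adjusted p = 2.37e-16), a fold of 0.461 with a 95% interval from its SE of 0.413 to 0.514. Only 0.585% of the tested genes had a lower log2 fold change. The call held in all 15 alternatives, with log2 fold changes from -1.22 to -1.02. In the annotation, no exon of LIMK1 overlapped another gene.

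LIMK2 (ENSG00000182541; chromosome 22, 31212239 to 31280080, plus strand) had 2005, 1836 and 1982 counts in si-GLMP and 1602, 1780 and 1856 counts in NC. Its level was 98, 86.6 and 96 CPM in si-GLMP, against 80.4, 87.1 and 82.4 CPM in NC. The second si-GLMP library lay within the NC range and the other two above it, so the groups overlapped. The mean was 93.5 ± 6.1 CPM in si-GLMP and 83.3 ± 3.43 CPM in NC (SD, n = 3 each), and the log2 fold change of 0.17 ± 0.07 missed the threshold (edgeR adjusted p = 0.0837). It passed without si-GLMP replicate 2 (0.22, edgeR adjusted p = 0.0163) and after a smooth trend on GC content and length was taken out (0.18, edgeR adjusted p = 0.0156).

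The ratio of LIMK1 to LIMK2 within a library needs no scaling between libraries. Per kilobase of exon it was 0.432, 0.369 and 0.392 in si-GLMP replicates 1 to 3 and 1, 0.957 and 0.96 in NC replicates 1 to 3. LIMK1 RNA was thus close to level with LIMK2 RNA in NC, and well below it in each si-GLMP library. The log2 ratio averaged -1.33 ± 0.11 in si-GLMP and -0.04 ± 0.04 in NC (SD, n = 3 each), a difference of -1.29. The exact two-sided permutation test gave p = 0.1, the smallest value that 3 against 3 libraries allow, and 0.1 after adjustment over the 4 ratios compared. The level of the ratio depends on the length used, and with the longest transcript of each gene it averaged 0.484 in si-GLMP and 1.18 in NC, with the same difference.

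RefSeq windows of 250 bases before a start site are shown for the LIM kinases, whose ratio had groups that did not overlap, and for the diaphanous formins, whose log2 fold changes were of different size. The GRCh38.p14 positions are chr7:74092967-74093216 (plus strand), chr22:31248134-31248383 (plus), chr5:141619001-141619250 (minus) and chr13:60013190-60013439 (minus). Capitals mark the letters GGAATG, part of the binding motif of TEAD factors.
LIMK1: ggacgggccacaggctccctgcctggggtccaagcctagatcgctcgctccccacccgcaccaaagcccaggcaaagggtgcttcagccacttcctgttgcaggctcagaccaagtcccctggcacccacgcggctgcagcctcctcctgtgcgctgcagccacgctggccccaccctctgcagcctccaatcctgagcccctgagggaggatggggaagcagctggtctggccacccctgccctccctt
LIMK2: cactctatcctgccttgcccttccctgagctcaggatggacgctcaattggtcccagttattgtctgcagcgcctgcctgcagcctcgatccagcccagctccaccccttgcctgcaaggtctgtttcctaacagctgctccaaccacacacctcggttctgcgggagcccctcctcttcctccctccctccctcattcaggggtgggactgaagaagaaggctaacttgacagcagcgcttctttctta
DIAPH1: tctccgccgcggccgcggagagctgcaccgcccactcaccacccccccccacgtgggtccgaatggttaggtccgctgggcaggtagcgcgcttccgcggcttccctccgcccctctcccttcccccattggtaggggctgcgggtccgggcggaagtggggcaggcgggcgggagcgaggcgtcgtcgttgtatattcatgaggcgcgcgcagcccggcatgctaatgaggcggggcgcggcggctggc
DIAPH3: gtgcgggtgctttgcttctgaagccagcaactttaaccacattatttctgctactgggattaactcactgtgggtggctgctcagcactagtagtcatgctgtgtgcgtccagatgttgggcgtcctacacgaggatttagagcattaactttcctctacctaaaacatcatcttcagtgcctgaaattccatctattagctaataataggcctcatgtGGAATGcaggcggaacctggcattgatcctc
The genes have several starts, and counts per gene do not tell which is used in PC9OR. The nearest protein-coding transcript start of GENCODE 29 lay 138 bases from the LIMK1 start site, 18 from that of LIMK2, 55 from that of DIAPH1 and 11 from that of DIAPH3. Further starts lay up to 10284, 36110 and 150798 bases upstream of the LIMK1, LIMK2 and DIAPH3 sites, so these windows are not the only promoters of those genes. All 9 members had a window in the RefSeq table. The 250 bases of LIMK1 and LIMK2 had a GC content of 68% and 58%, with 8 and 6 CpG dinucleotides. Those of DIAPH1 had 72.8% GC and 31 CpG, and those of DIAPH3 46.8% GC and 5 CpG. The motifs were searched on both strands in 300 bases, from 250 before to 50 after the start site: the CArG box bound by SRF, GGAATG, and TGANTCA, the motif of AP-1. GGAATG occurred once among the 9 members, in DIAPH3, starting 31 bases before the start site, and 14% of 35114 RefSeq windows held it. The CArG box and TGANTCA occurred in 0 of the 9 windows and in 1.29% and 7.71% of all windows.

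Cofilin and its phosphatase sit at the end of this branch. CFL1 (ENSG00000172757; chromosome 11, 65823022 to 65862026, minus strand) had the most reads of the members, more than 99.4% of the tested genes. It had 19708, 17989 and 17904 counts in si-GLMP and 18225, 19430 and 19616 counts in NC. The CPM values of the groups overlapped, with the highest and the lowest library both in si-GLMP, and the means were 893 ± 61.6 CPM in si-GLMP and 912 ± 40.2 CPM in NC (SD, n = 3 each). The log2 fold change was -0.03 ± 0.06 (edgeR adjusted p = 0.787), with a 95% interval of the fold from 0.898 to 1.07. Exons of MUS81 and SNX32 on the opposite strand cover 12.9% and 6.09% of the exonic length of CFL1. The 8 annotated pseudogenes of CFL1 held 47 counts in all, 0.0416% of those of CFL1.

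SSH1 (ENSG00000084112; chromosome 12, 108778192 to 108857590, minus strand) dephosphorylates and so reactivates cofilin. Its level was 190, 192 and 199 CPM in si-GLMP and 210, 215 and 203 CPM in NC. The groups did not overlap, with each si-GLMP library lower, but the difference was small, at 194 ± 4.66 CPM in si-GLMP and 209 ± 6.03 CPM in NC (SD, n = 3 each). The log2 fold change of -0.11 ± 0.06 did not pass (edgeR adjusted p = 0.229), with a 95% interval of the fold from 0.85 to 1.01. The sum of LIMK1 and LIMK2 over SSH1, per kilobase of exon, was 1.74, 1.45 and 1.58 in si-GLMP and 1.81, 1.87 and 1.87 in NC. Each si-GLMP library was below the NC libraries, most in replicate 2. With the longest transcript as length it averaged 2.54 in si-GLMP and 3.09 in NC, a log2 difference of -0.28. Per kilobase of exon the log2 ratio differed by -0.22 (0.66 ± 0.13 in si-GLMP and 0.89 ± 0.03 in NC, SD, n = 3 each; exact permutation p = 0.1, the smallest possible, and 0.1 adjusted over 4 ratios).

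The diaphanous formins nucleate and elongate actin filaments. DIAPH3 (ENSG00000139734; chromosome 13, 59665583 to 60163987, minus strand) had 785, 918 and 783 counts in si-GLMP and 1230, 1347 and 1464 counts in NC. All si-GLMP libraries were below all NC libraries. The mean was 39.9 ± 2.98 CPM in si-GLMP and 64.2 ± 2.18 CPM in NC (SD, n = 3 each), and the log2 fold change -0.69 ± 0.08 (edgeR adjusted p = 6.11e-10), a fold of 0.621 with a 95% interval from 0.558 to 0.691. The call held in all 15 alternatives, from -0.75 to -0.65. DIAPH3-AS1 covers 1.34% of its exonic length on the opposite strand.

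DIAPH3 is needed in dividing cells, so mitotic genes were counted beside it. Of 17 tested mitotic genes, 3 were lower, 0 higher and 14 not called, with a median log2 fold change of -0.09. The 17.6% lower was near the 16.5% of the 4169 abundant genes defined above, and 11.3% of all tested genes were lower. The summed level of the 18 listed genes was 2525 to 2757 CPM in si-GLMP libraries and 2805 to 2961 CPM in NC libraries, which did not overlap, and the part of this in the DIAPH3 result was not tested. CENPF, a kinetochore protein gene, had a log2 fold change of -0.41, the mitotic kinase gene AURKA -0.39 and the checkpoint gene BUB1B -0.26 (edgeR adjusted p = 0.0153). All 3 were smaller in size than that of DIAPH3. The count of mitotic genes called in either direction, 3, was 6 if si-GLMP replicate 2 was left out, and 6 after the trend on GC content and length was taken out. The BUB1B call was lost without NC replicate 1, NC replicate 2 or si-GLMP replicate 1 (edgeR adjusted p = 0.0589, 0.0709 and 0.126).

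DIAPH1 (ENSG00000131504; chromosome 5, 141515016 to 141619055, minus strand), next after CFL1 in reads, had 8563, 8454 and 8245 counts in si-GLMP and 9188, 9628 and 10533 counts in NC. Its level was 418, 399 and 399 CPM in si-GLMP and 461, 471 and 467 CPM in NC, with a clear gap between the groups. The log2 fold change was -0.20 ± 0.06 (edgeR adjusted p = 0.012), a change of -13.1%. The call was lost without NC replicate 1 (edgeR adjusted p = 0.0602), NC replicate 3 (0.0572) or si-GLMP replicate 3 (0.0728), where the log2 fold change was -0.21, -0.20 and -0.18. DIAPH3 over DIAPH1 per kilobase was 0.0908, 0.108 and 0.0941 in si-GLMP and 0.133, 0.139 and 0.138 in NC. DIAPH3 was the lesser formin in every library, and its share was lower in each si-GLMP library. The log2 ratio differed by -0.49 between groups (exact permutation p = 0.1, the smallest possible, and 0.1 adjusted over 4 ratios).

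**Figure D2:**
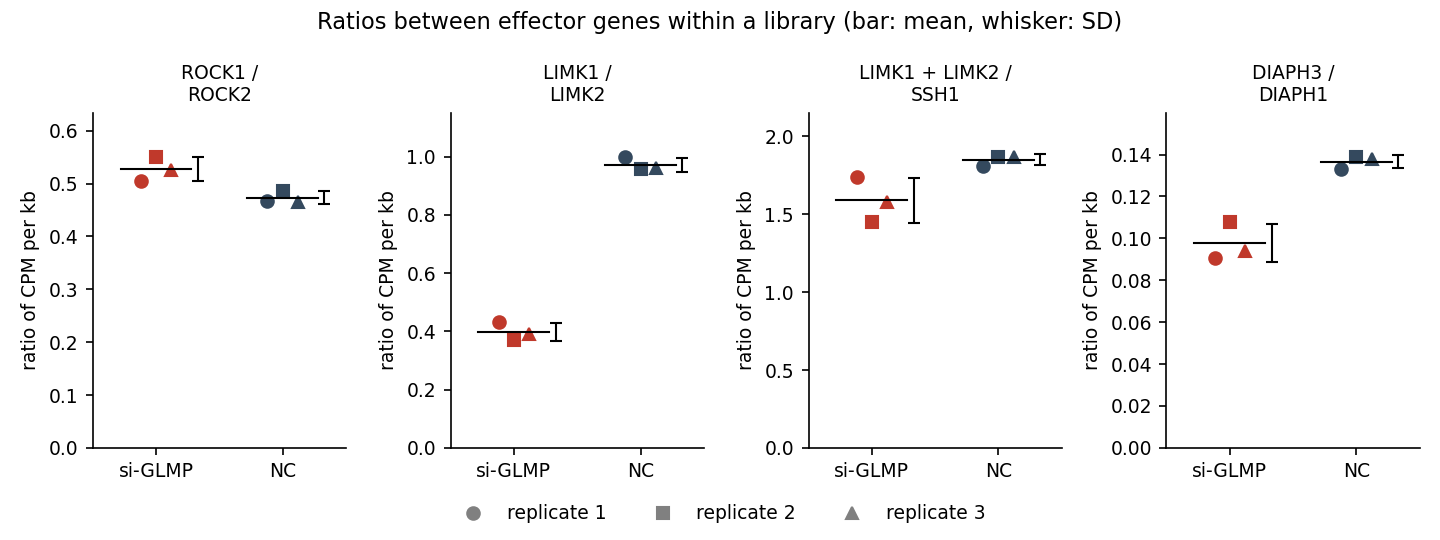
Ratios of CPM per kilobase of exon between effector genes within each library (vertical axes, from 0), for the 3 si-GLMP libraries (left, red) and the 3 NC libraries (right, dark), with means as bars and SD as whiskers. LIMK1 over LIMK2 averages 0.398 in si-GLMP and 0.972 in NC, and in none of the 4 ratios do the groups overlap.

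The ROCK kinases, the main kinases activated by RhoA, changed little. ROCK2 (ENSG00000134318; chromosome 2, 11179761 to 11348330, minus strand) had 1782, 2263 and 2001 counts in si-GLMP and 2220, 2267 and 2556 counts in NC. Its level was 87.1, 107 and 96.9 CPM in si-GLMP and 111, 111 and 113 CPM in NC, so the si-GLMP libraries were lower, replicate 2 only just. The log2 fold change was -0.21 ± 0.07 (edgeR adjusted p = 0.0266), a change of -13.4%. The call was lost without NC replicate 1 (-0.21, edgeR adjusted p = 0.0922), NC replicate 3 (-0.20, 0.104), si-GLMP replicate 1 (-0.14, 0.191) or si-GLMP replicate 3 (-0.20, 0.112), and with no filter on low counts (-0.20, 0.052). ROCK1 (ENSG00000067900; chromosome 18, 20946906 to 21111851, minus strand) had 48.2, 64.4 and 55.9 CPM in si-GLMP and 57, 59.2 and 57.7 CPM in NC. The si-GLMP libraries lay on both sides of the NC libraries. The log2 fold change was -0.05 ± 0.08 (edgeR adjusted p = 0.746), with a 95% interval of the fold from 0.867 to 1.08. Its pseudogene ROCK1P1 held 45 counts, 0.629% of those of ROCK1. ROCK1 over ROCK2 per kilobase was 0.505, 0.551 and 0.526 in si-GLMP and 0.467, 0.487 and 0.465 in NC, a difference in log2 ratio of 0.16 (exact permutation p = 0.1, the smallest possible, and 0.1 adjusted over 4 ratios).

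PKN2 (ENSG00000065243; chromosome 1, 88684222 to 88836255, plus strand), a kinase of the protein kinase C superfamily that binds RhoA, had 74, 91.9 and 84.4 CPM in si-GLMP and 90, 85 and 86.8 CPM in NC. The groups overlapped, and the log2 fold change was -0.06 ± 0.07 (edgeR adjusted p = 0.588; 95% interval of the fold 0.865 to 1.06). PKN2, ROCK1 and ROCK2 had the same order of si-GLMP libraries, with replicate 1 the lowest and replicate 2 the highest. Their SDs in si-GLMP were 9.02, 8.09 and 9.81 CPM, against 2.5, 1.13 and 1.32 CPM in NC. The longest transcripts of PKN2, ROCK1 and ROCK2 had 37.3%, 40.5% and 39.9% GC, and DIAPH3, with 40.6%, was likewise highest in replicate 2 among the si-GLMP libraries. LIMK1 and LIMK2, each with 54.4% GC, and CFL1, with 57.7%, were highest in replicate 1 among them. DIAPH1, with 50.9%, was also highest in replicate 1, but SSH1, with 49.6%, was highest in replicate 3. The part of GC content in these values was not tested beyond the fit with this trend taken out.

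**Figure D3:**
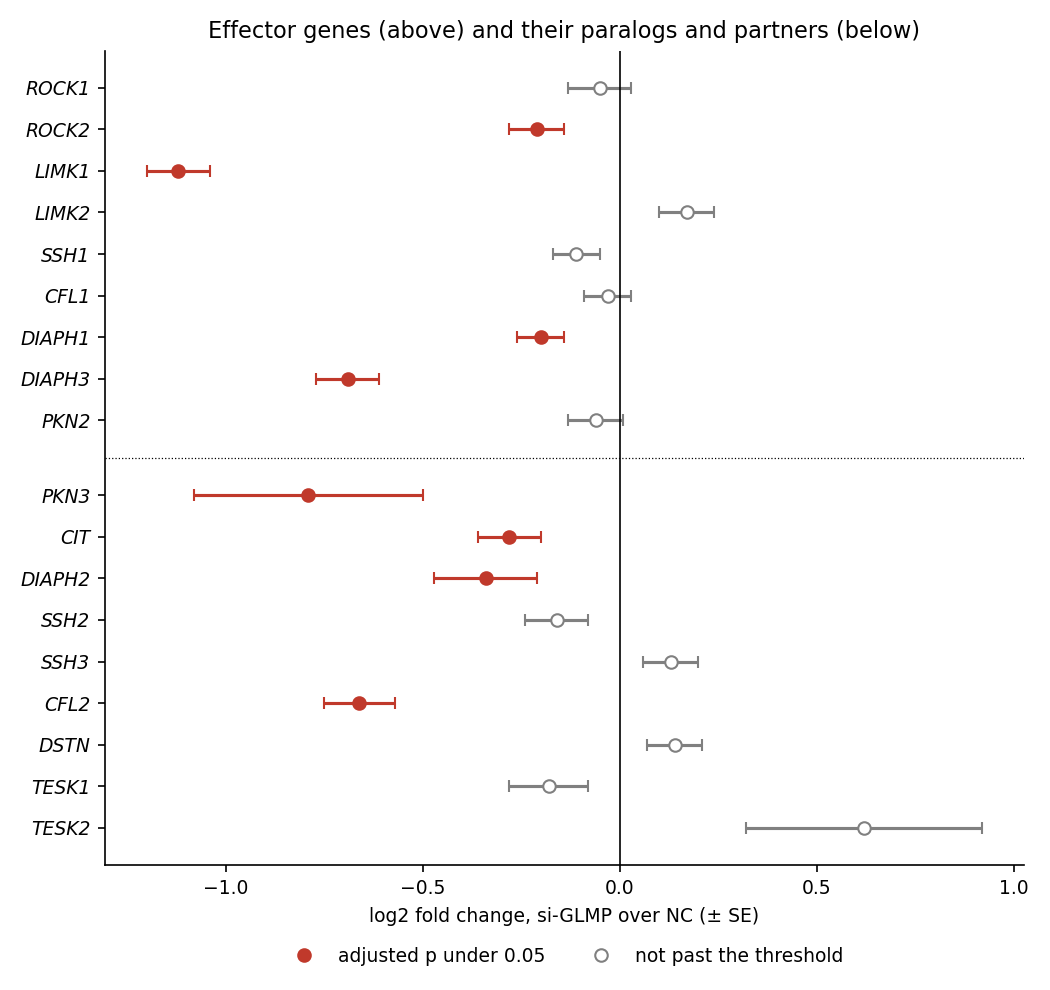
Log2 fold change of si-GLMP over NC with its SE (horizontal axis) for the 9 effector genes (above the dotted line) and 9 paralogs and partners (below it), filled red where the edgeR adjusted p is under 0.05. LIMK1 at -1.12 and DIAPH3 at -0.69 stand left of the other members, and CFL2 at -0.66 is the lowest of the cofilin family genes.

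Per kilobase of exon, the 9 genes spanned a wide range of levels. In NC the order from high to low was CFL1 (156 ± 6.86 CPM per kb), DIAPH1 (63.3 ± 0.67), SSH1 (14.4 ± 0.415), LIMK2 (13.5 ± 0.556), LIMK1 (13.1 ± 0.357), PKN2 (12.7 ± 0.362), ROCK2 (11 ± 0.13), DIAPH3 (8.63 ± 0.292) and ROCK1 (5.22 ± 0.102; SD, n = 3 each). The libraries of SSH1 and LIMK2, of LIMK2 and LIMK1, and of LIMK1 and PKN2 overlapped, so those neighbours did not differ beyond their spread on this scale. In si-GLMP the order was CFL1 (152 ± 10.5 CPM per kb), DIAPH1 (55 ± 1.53), LIMK2 (15.2 ± 0.989), SSH1 (13.3 ± 0.32), PKN2 (12.1 ± 1.31), ROCK2 (9.55 ± 0.967), LIMK1 (6.04 ± 0.843), DIAPH3 (5.36 ± 0.4) and ROCK1 (5.05 ± 0.728; SD, n = 3 each). There SSH1 and PKN2, LIMK1 and DIAPH3, and DIAPH3 and ROCK1 overlapped. LIMK1 thus stood beside DIAPH3 and ROCK1 in si-GLMP. This order depends on the length, here the sum of all annotated exons. With the longest transcript as the length, LIMK1 (26.8 CPM per kb), LIMK2 (22.7), SSH1 (16.1) and PKN2 (14.3) followed each other in NC without overlap. On that scale LIMK1 averaged 12.4 CPM per kb in si-GLMP, where it overlapped PKN2 (13.6) and ROCK2 (11.7) and lay above DIAPH3 (8.3). CFL1 and DIAPH1 were the highest under either length.

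**Figure D4:**
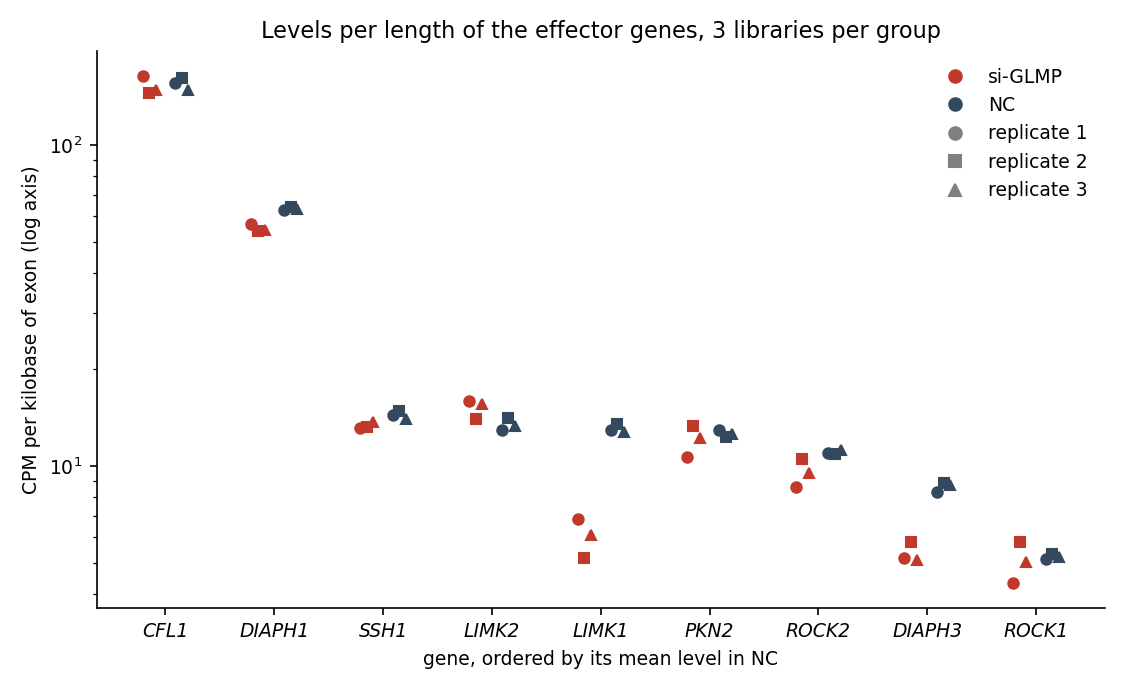
CPM per kilobase of exon (vertical log axis) for the 9 effector genes, ordered by their mean in NC, in the 3 si-GLMP libraries (red, left of each pair) and the 3 NC libraries (dark). CFL1 averages 152 in si-GLMP and 156 in NC, and LIMK1 drops to 6.04 in si-GLMP, against 13.1 in NC.

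Among the paralogs in the cofilin branch, CFL2 was lower and the others did not pass the test. CFL2, the muscle-type cofilin, fell to 21.1 ± 1.62 CPM in si-GLMP, against 33.3 ± 2.23 CPM in NC (SD, n = 3 each), or -0.66 ± 0.09 on the log2 scale (edgeR adjusted p = 1.3e-07), while DSTN, the related actin-depolymerizing factor destrin, had 0.14 ± 0.07 (edgeR adjusted p = 0.107). DSTN passed as higher without si-GLMP replicate 1 (0.20, edgeR adjusted p = 0.0275) and after the trend on GC content and length was taken out (0.14, edgeR adjusted p = 0.0432). The other slingshot phosphatase genes had -0.16 (SSH2, edgeR adjusted p = 0.143) and 0.13 (SSH3, edgeR adjusted p = 0.18), and SSH3 passed without si-GLMP replicate 2 (0.20, edgeR adjusted p = 0.0215). TESK1 and TESK2, kinases related to the LIM kinases that also phosphorylate cofilin, had -0.18 and 0.62 (edgeR adjusted p = 0.223 and 0.131), TESK2 at only 1.64 ± 0.344 CPM in si-GLMP and 1.06 ± 0.18 CPM in NC (SD, n = 3 each).

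Among the other RhoA effectors, 6 of 11 tested were lower, 1 higher and 4 not called, with a median log2 fold change of -0.21. For scale, 11.3% of all tested genes were lower and 12% higher, and 16.5% of the 4169 abundant genes defined above were lower. DAAM1, a formin of planar polarity signalling, had -0.56 ± 0.09 (edgeR adjusted p = 1.73e-06), and CIT, the citron kinase of cytokinesis, -0.28 (edgeR adjusted p = 0.00879). RTKN2 had -0.33, and RHPN2, a scaffold that binds RhoA, rose by 0.28. The calls of CIT and RHPN2 were lost without NC replicate 1 (edgeR adjusted p = 0.0921 and 0.0758), and those of CIT and RTKN2 without si-GLMP replicate 1 (edgeR adjusted p = 0.0548 and 0.147). PKN3 had -0.79 ± 0.29 (edgeR adjusted p = 0.0372) at 1.12 ± 0.0541 CPM in si-GLMP and 1.95 ± 0.58 CPM in NC (SD, n = 3 each), and its call was lost without NC replicate 1 (-0.53, 0.311) or any si-GLMP library and by DESeq2 (0.0797). Leaving out NC replicate 1 reduced the count of 7 called effectors to 2. It was 3 if si-GLMP replicate 1 was left out, 4 if si-GLMP replicate 3 was, and 4 with no filter on low counts.

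Of 9 other tested formins, DAAM1 and DIAPH2 again among them, 5 were lower, 0 higher and 4 not called, with a median of -0.20. The shares over all tested genes were 11.3% lower and 12% higher, and 16.5% lower among the 4169 abundant genes. FHOD3, a formin known from heart muscle, had -0.85 ± 0.09, at 18 ± 0.615 CPM in si-GLMP and 32.5 ± 1.66 CPM in NC (SD, n = 3 each; edgeR adjusted p = 1.62e-10). FMNL3 had -0.32, FMNL2 -0.20 and DIAPH2, the third diaphanous formin, -0.34 (edgeR adjusted p = 0.0255, 0.0302 and 0.0446). The FMNL2, FMNL3 and DIAPH2 calls were each lost in 5 or more alternatives. The count of 5 lower formins was 2 without NC replicate 1, NC replicate 3 or si-GLMP replicate 3, and 3 without NC replicate 2 or si-GLMP replicate 1 or with no filter. PRPF40B on the opposite strand covers 19.7% of the exonic length of FMNL3.

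Upstream of these effectors, RHOA itself was not past the threshold (log2 fold change -0.12 ± 0.06, edgeR adjusted p = 0.161), and it passed after the trend on GC content and length was taken out (-0.16, edgeR adjusted p = 0.0211). Of 22 tested RhoA exchange factors, which load GTP, 2 were higher, 6 lower and 14 not called, with a median of -0.15. NET1 had the smallest adjusted p among them, with 113 ± 11.3 CPM in si-GLMP and 270 ± 18.4 CPM in NC (SD, n = 3 each), or -1.26 ± 0.07 on the log2 scale (edgeR adjusted p = 1.63e-20). ARHGEF28 had -0.61, ARHGEF3 -0.46 and ARHGEF17 -0.33. The count of called exchange factors, 8, was 5 without NC replicate 1.

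Of 18 tested GTPase-activating proteins and GDP-dissociation inhibitors, which keep RhoA inactive, 1 was higher, 9 lower and 8 not called, with a median of -0.23. ARHGDIB, a GDP-dissociation inhibitor, had 46.5 ± 1.05 CPM in si-GLMP and 83.4 ± 10.9 CPM in NC (SD, n = 3 each), or -0.84 ± 0.08 on the log2 scale (edgeR adjusted p = 2.3e-12). ARHGDIA, a more abundant GDP-dissociation inhibitor, was the gene called higher, with 275 CPM in si-GLMP and 238 CPM in NC. Its log2 fold change was 0.21 (edgeR adjusted p = 0.0143), so these inhibitors went in opposite directions. DLC1, a RhoA GTPase-activating protein, had -0.55, ARHGAP10 -0.54, and RACGAP1, a part of the central spindle in dividing cells, -0.42. Both this list and the exchange factors thus held lower genes, and each also held higher ones. Of all tested genes, 11.3% were lower and 12% higher. The count of called genes, 10, was 6 without NC replicate 1 and 5 without NC replicate 3 or si-GLMP replicate 3.

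Around the kinases, 23 tested regulators and partners of cofilin gave 4 higher, 3 lower and 16 not called, with a median of -0.00. GMFB, a glia maturation factor of the cofilin fold, rose by 0.55 (edgeR adjusted p = 7.24e-08) and the actin-monomer-binding profilin gene PFN2 by 0.37. PAK2, a kinase that phosphorylates LIM kinases, had -0.32 (edgeR adjusted p = 0.00023). PAK4, of the same family, rose by 0.32 (edgeR adjusted p = 0.000258), and PAK1 had -0.18 and was not called. Of 17 tested ROCK substrates, 2 were higher, 4 lower and 11 not called. The myosin light chain gene MYL9 had 8.96 ± 1.45 CPM in si-GLMP and 18.2 ± 3.03 CPM in NC (SD, n = 3 each), or -1.02 ± 0.13 on the log2 scale (edgeR adjusted p = 8.45e-09), and PPP1R12B, a myosin phosphatase subunit gene, had -0.33, not called without si-GLMP replicate 1 (edgeR adjusted p = 0.0551). The heavy chain gene MYH14 rose by 0.54. Of 12 tested ROCK relatives, inhibitors and partners, 3 were higher, 3 lower and 6 not called. CDC42BPB, a ROCK-related kinase activated by Cdc42, had 130 ± 11.4 CPM in si-GLMP and 232 ± 4.2 CPM in NC (SD, n = 3 each), or -0.84 ± 0.07 on the log2 scale (edgeR adjusted p = 8.17e-15), whereas its relatives CDC42BPG and DMPK rose by 0.41 and 0.44. SHROOM2, of a family that recruits ROCK to cell junctions, had -0.83. The shares called in these lists, in the order given, were 30.4%, 35.3% and 50%, against 23.3% of all tested genes. The cofilin and ROCK substrate shares lay near the 34.3% called among the 4169 abundant genes defined above.

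**Figure D5:**
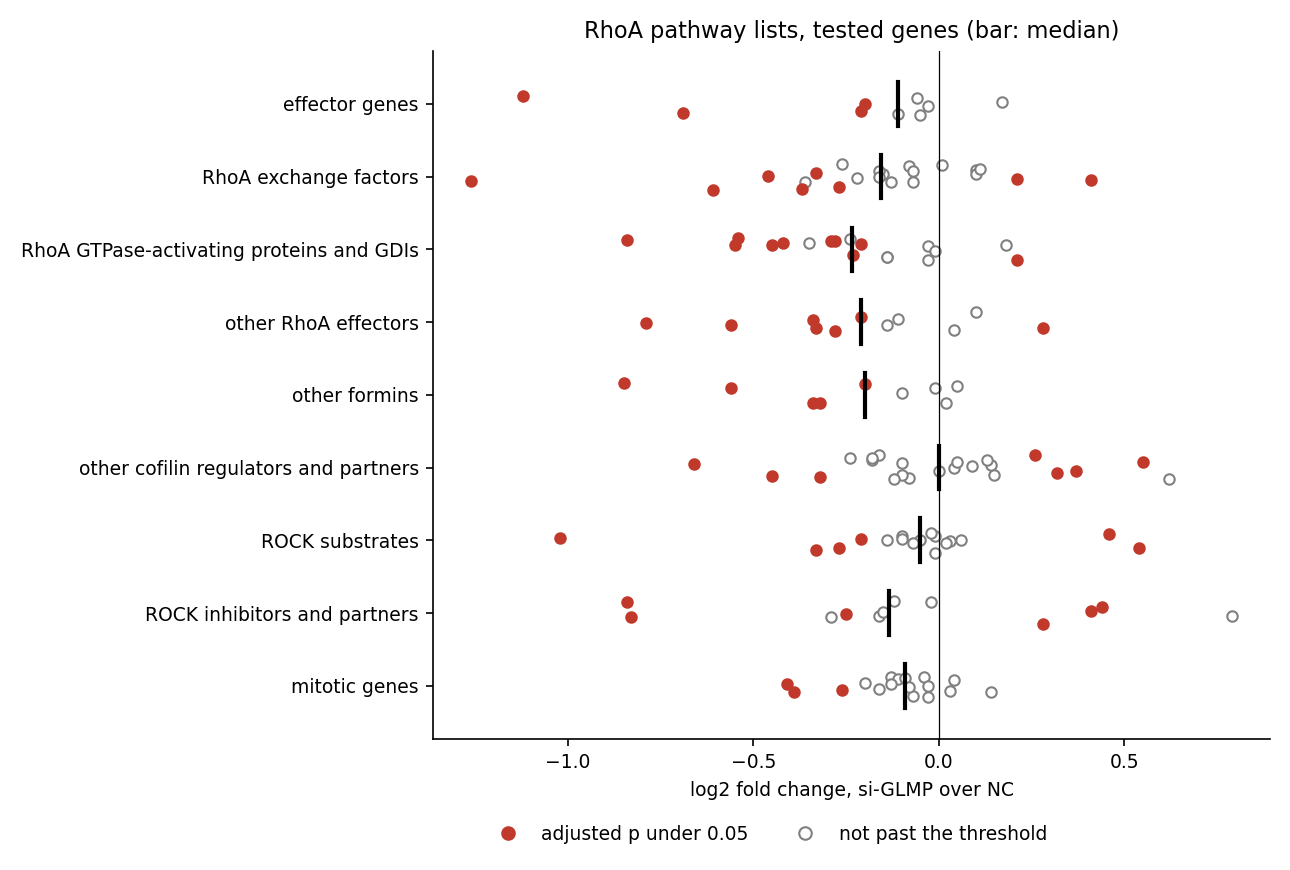
Log2 fold change of si-GLMP over NC (horizontal axis) for each tested gene of the 9 effector genes and 8 lists, with the median as a bar and genes under an edgeR adjusted p of 0.05 filled red. The medians run from -0.23 for the GTPase-activating proteins and GDP-dissociation inhibitors to -0.00 for the cofilin regulators, and -0.11 for the effector genes.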

How the data were processed

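The table deposited by the authors holds raw read counts per gene, whole numbers with no normalization, for 6 libraries whose columns carry the sample titles. The submitters' processing notes name HISAT2 and GRCh38. How reads were counted, with which annotation and strand setting, is not given in the sources used here, so reads from opposite strands of overlapping genes may be mixed. Groups and replicate numbers came from the titles.

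R 4.3.3 and edgeR 4.0.16 were used. The filter filterByExpr (minimum count 10) kept 15900 genes, which held 99.84% or more of the counts in any library. TMM factors lay between 0.9639 and 1.018. The groups were compared by the robust quasi-likelihood F test with group as the only term, adjusted by Benjamini-Hochberg over all tested genes, with a threshold of 0.05. A standard error was obtained as the log2 fold change over the root of F, and the intervals given are normal ones built from them. Ratios were compared by exact permutation. Coordinates, exonic lengths, GC content and overlaps came from GENCODE 29 (GRCh38), and start-site windows from RefSeq (GRCh38.p14). A count of 3, the floor of detection, was 0.133 to 0.151 CPM, and covers counting error only.

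The members and gene lists were chosen with earlier results of these data known. Genes named besides the members were GLMP, RHOA, 10 paralogs and partners, and, from each list, up to 4 genes under 0.05, taken by their adjusted p. Of these, 1 list with the genes named from it and 2 further genes are not reported here. The fits were also run on simulated counts with known changes, and the outcome is not given here. The simulation had no GC trend or library effect, so it does not bear on spread of that kind. Alternatives were RLE and upper-quartile scaling, other filters, each library left out, DESeq2 1.42.0, limma-voom (limma 3.58.1), a replicate block and removal of a GC and length trend. The longest transcript as the length of the ratios was added after seeing the data.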

Additional observations from a re-analysis of the deposited data

How the results depend on the processing

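Of the 9 members, 6 kept their side of the threshold in all 15 alternatives, and 0 called values reversed. The exceptions were ROCK2, DIAPH1 and LIMK2. ROCK2 had -0.20 with no filter on low counts (edgeR adjusted p = 0.052), and LIMK2 passed at 0.18 with the GC and length trend removed, also together with the replicate block (edgeR adjusted p = 0.0156 and 0.0185), which made 1 member higher in both. With each library left out in turn, the members called lower ranged from 2 to 4 and those called higher from 0 to 1. ROCK2 ranged from -0.28 to -0.14, DIAPH1 from -0.23 to -0.18 and LIMK2 from 0.13 to 0.22. The called exchange factors ranged from 5 to 10, GTPase-activating proteins and GDP-dissociation inhibitors from 5 to 10, other effectors from 2 to 6, other formins from 2 to 4 and mitotic genes from 2 to 6. With no filter, 4 other effectors and 3 other formins were called. Mitotic genes called were 6 with the trend removed, with or without the block. An absolute log2 fold change over 1 left 304 of 3712 called genes, and one over 0.5 left 2 of 4 called members. The cause of these changes was not tested.

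The replicate numbers gave no sign of pairing: deviations from the group means of same-numbered libraries correlated at 0.0388, 0.0263 and 0.00128. These values cannot show whether the libraries were handled in pairs. With the replicate block, 4 members were lower and 0 higher, and 5 mitotic genes were called. The ratios under the replicate block had an exact sign-flip p of 0.25, the smallest that 3 pairs allow. With the longest transcript as length, levels averaged over the 6 libraries were 6.02 (ROCK1), 12.6 (ROCK2), 19.6 (LIMK1), 24.1 (LIMK2), 15.5 (SSH1), 481 (CFL1), 74.6 (DIAPH1), 10.8 (DIAPH3) and 13.9 (PKN2) CPM per kb. Of 43 other named genes, 9 lost and 3 gained the call in at least 1 alternative.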
